A study of Mus musculus with 24 samples.

Results

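The cytochrome P450 genes of the mouse Cyp2a and Cyp2d families were followed in livers with and without the bile acid receptor FXR. The account covers 9 genes, taken by their symbols: Cyp2a4, Cyp2a5, Cyp2a12 and Cyp2a22 of the Cyp2a family, and Cyp2d9, Cyp2d10, Cyp2d22, Cyp2d26 and Cyp2d40 of the Cyp2d family. Of these 9 genes, 8 had a probe set of their own (3 Cyp2a and 5 Cyp2d) among the 18820 named genes of the array. Cyp2a4 had none. It was listed only together with Cyp2a5 on 1 probe set, whose values are given here as those of the Cyp2a5/Cyp2a4 shared probe set and are assigned to neither gene alone.

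The livers came from 24 male C57BL/6 mice, each on its own array, with 6 mice in each of 4 groups. Wild-type mice and mice carrying the FXR-/- deletion in the whole body received either obeticholic acid (OCA, also called INT-747, a semi-synthetic FXR agonist) at 10 mg/kg/day or its vehicle, 1% methyl cellulose. Dosing was by daily gavage for 7 days at an age of 9 to 12 weeks, and all mice ate chow. The design asks what the agonist does with its receptor present, whether anything is left of it without the receptor, and what loss of the receptor does on its own. Whole liver was used, so in these values fewer cells of a type and less RNA per cell cannot be told apart.

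Enzymes of both families sit in the endoplasmic reticulum of hepatocytes, hold a haem group, and use electrons passed on by P450 reductase and cytochrome b5 to add oxygen to their substrates. The Cyp2a enzymes of mouse liver hydroxylate steroids and small foreign molecules such as coumarin and nicotine. The Cyp2d family of the mouse is an expanded group whose human counterpart metabolises many prescribed drugs, and several of its members act on steroids. Some genes of both families are known for sex-biased expression in liver, which follows the male or female pattern of growth hormone release. Cyp2d9 is a standard marker of the male pattern and Cyp2a4 of the female pattern.

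Some members are close copies of one another, which can bear on how well an array tells them apart. In the RefSeq gene order, Cyp2a4, Cyp2a5, Cyp2a22 and Cyp2a12 lie in that order within a cluster of Cyp2 genes on chromosome 7, and Cyp2d22, Cyp2d10, Cyp2d9, Cyp2d40 and Cyp2d26 in that order within a cluster on chromosome 15. Promoter sequences in RefSeq (build GRCm38.p6) matched 8 of the 9 members. The pair with the shared probe set is shown first, as the 250 bases before each gene's start, 5′ to 3′ on the gene's own strand. Cyp2a4 lies at chr7:26306942-26307191 and Cyp2a5 at chr7:26835089-26835338, both on the plus strand. Capitals mark the match to the site of PAR bZIP factors, a group of clock-controlled transcription factors.
Cyp2a4: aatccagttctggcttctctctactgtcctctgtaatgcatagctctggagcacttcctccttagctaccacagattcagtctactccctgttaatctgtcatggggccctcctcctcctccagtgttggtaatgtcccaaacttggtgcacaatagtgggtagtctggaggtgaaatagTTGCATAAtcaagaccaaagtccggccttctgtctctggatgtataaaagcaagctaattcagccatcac
Cyp2a5: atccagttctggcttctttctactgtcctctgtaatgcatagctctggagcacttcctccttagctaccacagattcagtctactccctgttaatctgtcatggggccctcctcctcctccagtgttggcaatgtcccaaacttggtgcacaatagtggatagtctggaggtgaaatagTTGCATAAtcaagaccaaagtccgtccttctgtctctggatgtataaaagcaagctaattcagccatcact
Over the 249 bases that align, 245 were identical (98.4%). Both hold TTGCATAA, on the minus strand, starting 70 bases before the start of Cyp2a4 and 71 bases before that of Cyp2a5. The motif searched was TTATGNAA on both strands, and 3.07% of the 32851 mouse promoters of the same length hold it. No member's window held the STAT5 motif TTCNNNGAA (7.02% of promoters), the nuclear receptor half-site AGGTCA (14.0%), or the FXR element made of AGGTCA and TGACCT spaced by 1 base (0.00609%). Every full FXR element of this kind also contains the half-site.

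A second pair is shown because its genes differed in the direction of their change between genotypes, as described further on. The window of Cyp2a12 lies at chr7:27028840-27029089 on the plus strand and that of Cyp2a22 at chr7:26939387-26939636 on the minus strand. Capitals here mark aligned bases that differ and, inside the alignment, bases that stand opposite a gap.
Cyp2a12: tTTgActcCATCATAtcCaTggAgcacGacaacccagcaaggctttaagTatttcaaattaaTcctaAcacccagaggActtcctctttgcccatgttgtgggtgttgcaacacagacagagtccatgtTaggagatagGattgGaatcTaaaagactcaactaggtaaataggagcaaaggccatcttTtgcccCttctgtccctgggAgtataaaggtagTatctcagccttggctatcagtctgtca
Cyp2a22: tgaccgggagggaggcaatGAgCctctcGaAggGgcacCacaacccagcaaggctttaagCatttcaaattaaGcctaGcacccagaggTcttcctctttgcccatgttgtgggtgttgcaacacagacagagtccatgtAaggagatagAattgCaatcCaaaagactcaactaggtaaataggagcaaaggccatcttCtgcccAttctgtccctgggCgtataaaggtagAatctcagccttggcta
Of 232 aligned bases, 213 were identical (91.8%), and the alignment left 7 bases in gaps. The most strongly lowered member and its neighbour form the third pair. Cyp2d9 lies at chr15:82452127-82452376 on the plus strand and Cyp2d10 at chr15:82407195-82407444 on the minus strand, with capitals used in the same way.
Cyp2d9: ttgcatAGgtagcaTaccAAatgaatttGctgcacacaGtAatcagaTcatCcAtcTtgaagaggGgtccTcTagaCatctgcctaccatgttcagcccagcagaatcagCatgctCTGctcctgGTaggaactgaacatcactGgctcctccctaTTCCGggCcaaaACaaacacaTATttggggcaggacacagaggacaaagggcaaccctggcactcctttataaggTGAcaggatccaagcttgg
Cyp2d10: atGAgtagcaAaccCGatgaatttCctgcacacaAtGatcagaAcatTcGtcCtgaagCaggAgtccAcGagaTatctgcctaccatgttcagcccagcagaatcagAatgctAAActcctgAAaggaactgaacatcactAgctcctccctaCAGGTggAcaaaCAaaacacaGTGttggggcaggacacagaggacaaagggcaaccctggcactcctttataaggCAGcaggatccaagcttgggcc
Of 246 aligned bases, 209 were identical (85.0%), and 1 base stood opposite a gap. Promoter likeness is given as description of how close these pairs are, and it is not likeness of the transcripts. Other pairs were compared only at short shifts without gaps. At the best of these shifts, Cyp2d9 shared 180 bases with Cyp2d10 and 79 with Cyp2d40, and Cyp2a5 shared 76 with Cyp2a22. A low count of this kind does not show that a pair is unlike. The windows of Cyp2d9 and Cyp2d40 do hold like stretches, at a larger offset than the shifts tried. The probe sequences of the array were not used here, so signal shared between copies remains possible for all members, and a value is that of a probe set named for the gene.

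All values are the deposited log2 expression values, so a difference of 1 is 2-fold. Changes are log2 differences ± SE from a limma model over all 24 arrays, and a gene was called at an adjusted p under 0.05 over all 18820 named genes; the shared probe set was adjusted over all 35556 probe sets. Array medians lay between 4.57 and 4.65. One array, wild-type vehicle replicate 6, stood apart, with 532 genes more than 2-fold away from the average of its 5 companions, against 2 to 90 such genes in each of the other 23 arrays. Array names also carry a code number, whose meaning the sources used here do not state. It was 5 on all wild-type OCA arrays and on 2 wild-type vehicle arrays, 7 on 4 wild-type vehicle and 4 knockout vehicle arrays, and 9 on 2 knockout vehicle arrays and all knockout OCA arrays. The probe set of Nr1h4, the gene of FXR, read 9.96 to 10.30 in wild-type vehicle livers and 9.88 to 10.13 in knockout vehicle livers, and was not called (log2 difference −0.17 ± 0.07, adjusted p = 0.0935). Whether its probes lie in the deleted part of the gene is not known here, so it checks no label. Nr0b2, the FXR target that encodes SHP, read 5.87 to 7.30 in wild-type and 3.40 to 4.60 in knockout vehicle livers.

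Loss of FXR changed 6 of the 8 members with their own probe set under vehicle, in both directions. Cyp2a22 and Cyp2a5 were higher in knockout liver, while Cyp2d9, Cyp2d40, Cyp2d10 and Cyp2a12 were lower, and Cyp2d22 and Cyp2d26 were not called. Across all named genes 27.5% were called in this comparison, 15.4% higher and 12.1% lower. The 8 members all have a mean signal of at least 20. Of the 11133 genes with such a signal, 5018 were called here and 5568 under OCA when fitted alone. The median absolute change was 0.62 for the 8 members and 0.14 for all named genes. The same 6 genes were called in the same directions under OCA, a comparison that uses other mice throughout and in which 30.7% of all named genes were called, 17.4% higher and 13.3% lower. These shares depend on scaling: of the 5174 genes called under vehicle 56.1% were higher, but 17.5% of 10130 when each array was centred on the median of its named genes, which shifts the median difference of all genes from −0.03 to −0.20. Under OCA the corresponding figures were 56.7% of 5780 and 16.9% of 11099, with a median going from −0.02 to −0.21.

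**Figure D1:**
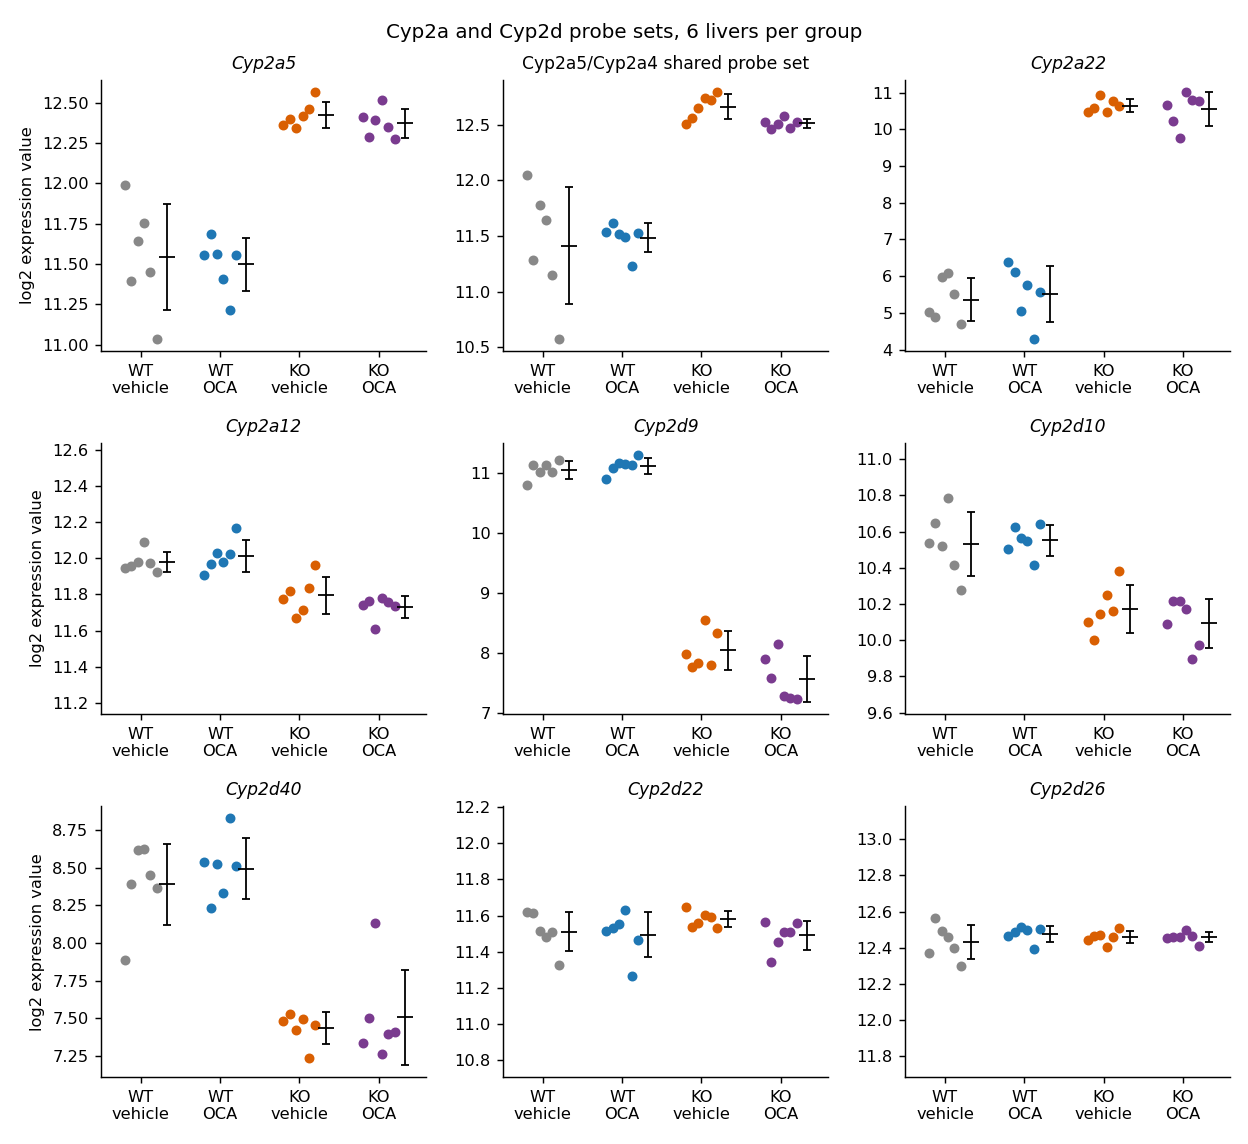
Deposited log2 expression value (vertical axis, own scale in each panel) of every liver for the 8 members with a probe set and the Cyp2a5/Cyp2a4 shared probe set, in 4 groups of 6 mice (points), with mean ± SD beside each group. Knockout and wild-type points are apart in Cyp2a5, the shared probe set, Cyp2a22, Cyp2d9 and, under both treatments, Cyp2d40, while Cyp2d22 and Cyp2d26 overlap throughout.

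Among the Cyp2a genes, Cyp2a22 showed the largest difference. Its values in wild-type liver ran from 4.69 through a median of 5.27 to 6.09 under vehicle, and from 4.29 through 5.65 to 6.39 under OCA. In knockout liver they ran from 10.46 through 10.61 to 10.93 under vehicle, and from 9.76 through 10.72 to 11.01 under OCA. Every knockout liver was far above every wild-type liver, and the treatments overlapped within each genotype. The wild-type values lie about the level of the median gene of this array (5.28), and with no detection calls used here they may be near background. The knockout mean was 38.8-fold higher under vehicle (log2 difference 5.28 ± 0.28, adjusted p = 2.55e-13) and 32.4-fold higher under OCA (5.02 ± 0.28, adjusted p = 6.36e-13). Only 3 of the 18820 named genes rose by more under vehicle.

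Cyp2a5, the mouse coumarin hydroxylase, is an abundant hepatic transcript that many liver toxicants are known to induce. Wild-type livers read 11.04 to 11.99 under vehicle (median 11.55) and 11.21 to 11.69 under OCA (median 11.55). Knockout livers read 12.34 to 12.56 under vehicle (median 12.41) and 12.27 to 12.52 under OCA (median 12.37). The genotypes did not overlap under either treatment, and the lowest of all values was that of wild-type vehicle replicate 6. The knockout mean was 1.84-fold higher under vehicle (log2 difference 0.88 ± 0.11, adjusted p = 5.57e-07) and 1.83-fold higher under OCA (0.87 ± 0.11, adjusted p = 5.36e-07). Without replicate 6 the vehicle difference was 0.78 (adjusted p = 3.39e-07). With the code number as a block the difference under OCA fell to 0.49 and lost its call (adjusted p = 0.150); there the wild-type and knockout arrays share no code number, so the block rests on the vehicle arrays.

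The Cyp2a5/Cyp2a4 shared probe set moved the same way as the Cyp2a5 probe set. Wild-type livers read 10.58 to 12.05 under vehicle (median 11.46) and 11.23 to 11.62 under OCA (median 11.52). Knockout livers read 12.50 to 12.79 under vehicle (median 12.69) and 12.46 to 12.58 under OCA (median 12.51). Again no wild-type liver reached the knockout range, and the wild-type vehicle group was the most widely spread, with an SD of 0.53 against 0.04 to 0.13 in the other groups. The knockout mean was 2.37-fold higher under vehicle (log2 difference 1.25 ± 0.15, adjusted p = 1.85e-06) and 2.03-fold higher under OCA (1.02 ± 0.15, adjusted p = 2.29e-05). Without wild-type vehicle replicate 6 the vehicle difference was 1.08 (adjusted p = 2.49e-07), and with the code number as a block the OCA difference was 0.39 and not called (adjusted p = 0.399). How much of this signal is Cyp2a4, the testosterone hydroxylase of the female liver, cannot be told from a probe set that both genes share.

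Cyp2a12, a steroid hydroxylase that also acts on bile acids in mouse liver, went the other way and by little. Wild-type livers read 11.93 to 12.09 under vehicle (median 11.96) and 11.91 to 12.17 under OCA (median 12.00). Knockout livers read 11.67 to 11.96 under vehicle (median 11.80) and 11.61 to 11.78 under OCA (median 11.75). Under vehicle 5 of the 6 knockout livers lay below every wild-type liver, and under OCA all 6 did. The log2 difference was −0.18 ± 0.06 under vehicle (1.13-fold, adjusted p = 0.0147) and −0.28 ± 0.06 under OCA (1.22-fold, adjusted p = 2.73e-04). The vehicle call was lost within code number 7 alone (−0.20, adjusted p = 0.106) and with the array code letter as a block (−0.17, adjusted p = 0.0604), and the OCA call with the number as a block (−0.33, adjusted p = 0.115). Median centring gave −0.35 and −0.47.

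Among the Cyp2d genes, Cyp2d9, a steroid hydroxylase of male liver, was the most lowered. Wild-type livers read 10.79 to 11.21 under vehicle (median 11.07) and 10.90 to 11.30 under OCA (median 11.14). Knockout livers read 7.77 to 8.54 under vehicle (median 7.90) and 7.24 to 8.15 under OCA (median 7.43). The genotypes were widely apart under both treatments. The knockout mean was 8.05-fold lower under vehicle (log2 difference −3.01 ± 0.14, adjusted p = 2.89e-14) and 11.8-fold lower under OCA (−3.56 ± 0.14, adjusted p = 1.14e-15). Cyp2d9 ranked 12 from the bottom among all named genes under vehicle and 9 under OCA.

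Cyp2d40 was lower to a smaller extent. Wild-type livers read 7.89 to 8.62 under vehicle (median 8.42) and 8.23 to 8.83 under OCA (median 8.52). Knockout livers read 7.24 to 7.53 under vehicle (median 7.47) and 7.26 to 8.13 under OCA (median 7.40). The ranges of the genotypes did not meet under either treatment, although knockout OCA replicate 3 at 8.13 and wild-type vehicle replicate 1 at 7.89 each stood away from their groups towards the other genotype. The log2 difference was −0.95 ± 0.13 under vehicle (1.93-fold lower, adjusted p = 2.60e-06) and −0.99 ± 0.13 under OCA (1.98-fold lower, adjusted p = 1.32e-06).

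Cyp2d10, which lies next to Cyp2d9 in the gene order, fell by much less than its neighbour. Wild-type livers read 10.28 to 10.79 under vehicle (median 10.53) and 10.42 to 10.64 under OCA (median 10.56). Knockout livers read 10.00 to 10.38 under vehicle (median 10.15) and 9.89 to 10.22 under OCA (median 10.13). Under vehicle 5 of 6 knockout livers lay below all wild-type livers, and under OCA all 6 did. The log2 difference was −0.36 ± 0.08 under vehicle (1.28-fold lower, adjusted p = 0.00117) and −0.46 ± 0.08 under OCA (1.37-fold lower, adjusted p = 6.90e-05).

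Cyp2d22 and Cyp2d26 were not called, and their intervals allow only small differences. Cyp2d22, often treated as the mouse counterpart of the main human drug-metabolising Cyp2d enzyme, read 11.33 to 11.62 (median 11.51) in wild-type and 11.53 to 11.65 (median 11.58) in knockout livers under vehicle. Under OCA it read 11.26 to 11.63 (median 11.52) and 11.35 to 11.57 (median 11.51). The groups overlapped in both cases. Its log2 difference was 0.07 under vehicle (95% interval −0.06 to 0.19, adjusted p = 0.454) and −0.0031 under OCA (−0.13 to 0.12, adjusted p = 0.979). Cyp2d26 read 12.30 to 12.57 (median 12.43) in wild-type and 12.41 to 12.51 (median 12.46) in knockout livers under vehicle, and 12.39 to 12.52 (median 12.49) against 12.41 to 12.50 (median 12.46) under OCA. All 4 of its groups overlapped. Its difference was 0.03 under vehicle (−0.07 to 0.12, adjusted p = 0.721) and −0.02 under OCA (−0.12 to 0.08, adjusted p = 0.799). Centring on the median turned the sign of both genes under vehicle (−0.10 for Cyp2d22 and −0.14 for Cyp2d26) and called Cyp2d26 there (adjusted p = 0.0208) and both genes under OCA (−0.19, adjusted p = 0.00963, and −0.21, adjusted p = 0.00101).

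The difference between genotypes could also be read within 1 code number, from the 4 wild-type and 4 knockout vehicle arrays that carry the number 7. There Cyp2a22 was 5.21, Cyp2a5 0.75 and the shared probe set 1.04 higher on the log2 scale in knockout liver. Cyp2d9 was −2.89, Cyp2d40 −0.98 and Cyp2d10 −0.39. These 5 members and the shared probe set were called, with adjusted p from 7.43e-07 for Cyp2a22 to 0.00799 for Cyp2d10. Cyp2a12 was not called within this number (adjusted p = 0.106). Groups without any overlap were found for 4 of the 8 members under vehicle, against 15.1% of all named genes, and for 6 of the 8 under OCA, against 18.4%. Between treatments no member's groups were apart, against 0.457% of named genes in wild-type and 0.654% in knockout liver.

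**Figure D2:**
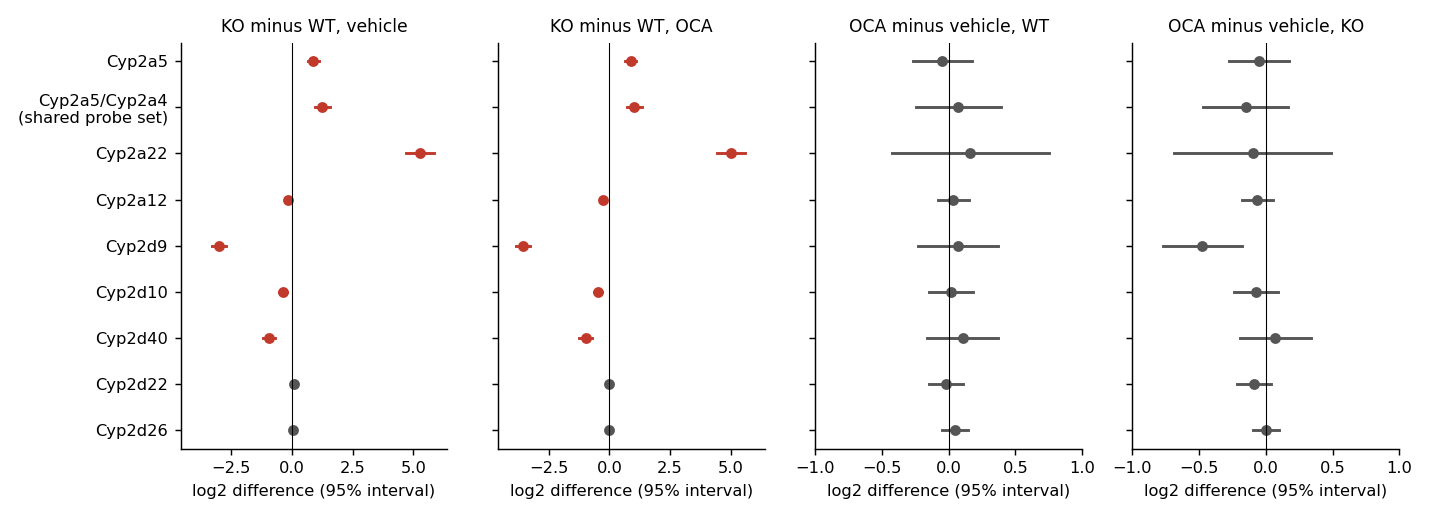
Log2 difference (point) and 95% interval (line) of each member and of the shared probe set in 4 comparisons from the limma model, with called values in red and others in grey; the genotype panels and the treatment panels have different horizontal scales. Cyp2a22 at 5.28 and Cyp2d9 at −3.01 stand out between genotypes under vehicle, and every treatment interval except that of Cyp2d9 in knockout liver includes 0.

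OCA called no member in wild-type liver, where 0.0691% of all named genes (13) were called, and none in knockout liver, where 0.0159% (3) were. At an unadjusted p under 0.05 the limma fit gave 0 of the 8 members in wild-type liver and 1, Cyp2d9, in knockout liver, against 1782 and 968 of all named genes. In the same wild-type livers Nr0b2 read 7.31 to 8.62 under OCA, against 5.87 to 7.30 under vehicle (log2 difference 1.41 ± 0.25, adjusted p = 0.0244). Its call was lost when wild-type vehicle replicate 6 was left out. In wild-type liver the member values ran from −0.05 for Cyp2a5 to 0.16 for Cyp2a22. The intervals were narrowest for Cyp2d26 (−0.05 to 0.14) and widest for Cyp2a22 (−0.43 to 0.75). Intervals of the other members were −0.27 to 0.17 for Cyp2a5, −0.08 to 0.15 for Cyp2a12, −0.23 to 0.37 for Cyp2d9, −0.14 to 0.19 for Cyp2d10, −0.14 to 0.11 for Cyp2d22 and −0.16 to 0.37 for Cyp2d40. A 2-fold change of any member thus lay outside its interval. For Cyp2a22, whose wild-type values may be near background, this holds for the probe set value and may not hold for the transcript. The shared probe set was at 0.07 (−0.25 to 0.39).

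Of the 9 measured entries, the shared probe set alone was called for OCA in wild-type liver under any alternative run. With the number as a block it was 0.62 higher under OCA (adjusted p = 0.0347), and within number 5 alone it was 0.62 with an adjusted p of 0.398. That contrast sets 6 OCA arrays against wild-type vehicle replicates 5 and 6, which held the 2 lowest values of their group (11.15 and 10.58). Without replicate 6 and with no block the value was −0.10 (adjusted p = 0.880). Cyp2a5 under the same block was at 0.25 (adjusted p = 0.309), and no member with its own probe set was called.

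In knockout liver Cyp2d9 had the largest OCA value of the members, at −0.48 ± 0.14 (95% interval −0.77 to −0.18). It was not called (unadjusted p = 0.00307, adjusted p = 0.763), although it ranked 32 from the bottom among 18820 genes. Of the 6 OCA-treated knockout livers, 4 lay below all vehicle-treated ones and the other 2 within their range. The other members lay between −0.10 for Cyp2a22 and 0.07 for Cyp2d40, and the shared probe set at −0.15. Within code number 9 alone, Cyp2d9 was at −0.31 (adjusted p = 0.892), which moves its value by over 1.5 times.

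The OCA effect was also compared between genotypes. No member was called, and none of the 18820 named genes was in this limma fit (0%; 1140 at an unadjusted p under 0.05, 1 of them the member Cyp2d9). The difference of the effects, knockout minus wild type, was −0.55 ± 0.20 for Cyp2d9 (95% interval −0.97 to −0.12, adjusted p = 0.713). For Cyp2a22 it was −0.26 (−1.09 to 0.57), and its interval thus reaches past 2-fold in 1 direction. In the 6 members called between genotypes, both knockout means lay on the same side of both wild-type means, so the treatments of a genotype were neighbours in the order of the 4 groups. No pair of treatments was called, and the groups of each overlapped. In Cyp2d22 the knockout means lay at both ends of the order, 11.58 under vehicle and 11.49 under OCA. In Cyp2d26 the wild-type means did, 12.48 under OCA and 12.43 under vehicle. In both genes the groups overlapped in all 4 comparisons of treatment or genotype.

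The neighbours of these genes in the chromosomal order were also looked at. Of 14 measured other genes of the 2 clusters, 5 were called higher and 5 lower in knockout liver under vehicle. On chromosome 7, Cyp2b13 rose by 7.25 ± 0.18 (adjusted p = 3.45e-20), Cyp2b9 by 7.40 ± 0.38 (adjusted p = 8.66e-14) and Cyp2b10 by 4.13 ± 0.39 (adjusted p = 6.94e-09), steroid and drug hydroxylases that are close relatives of one another. Cyp2f2, which follows Cyp2a12 in the order, fell by 0.36 ± 0.05 (adjusted p = 7.64e-06). Of the 9 measured neighbours there, 5 rose and 1 fell. On chromosome 15, none of 5 measured neighbours rose and 4 fell under vehicle, and 3 fell under OCA. Cyp2d13, chosen after its values were seen, was at −0.85 ± 0.14 under vehicle (adjusted p = 4.38e-05). In the chromosome 15 cluster no gene was thus called higher, and the chromosome 7 cluster held calls in both directions.

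**Figure D3:**
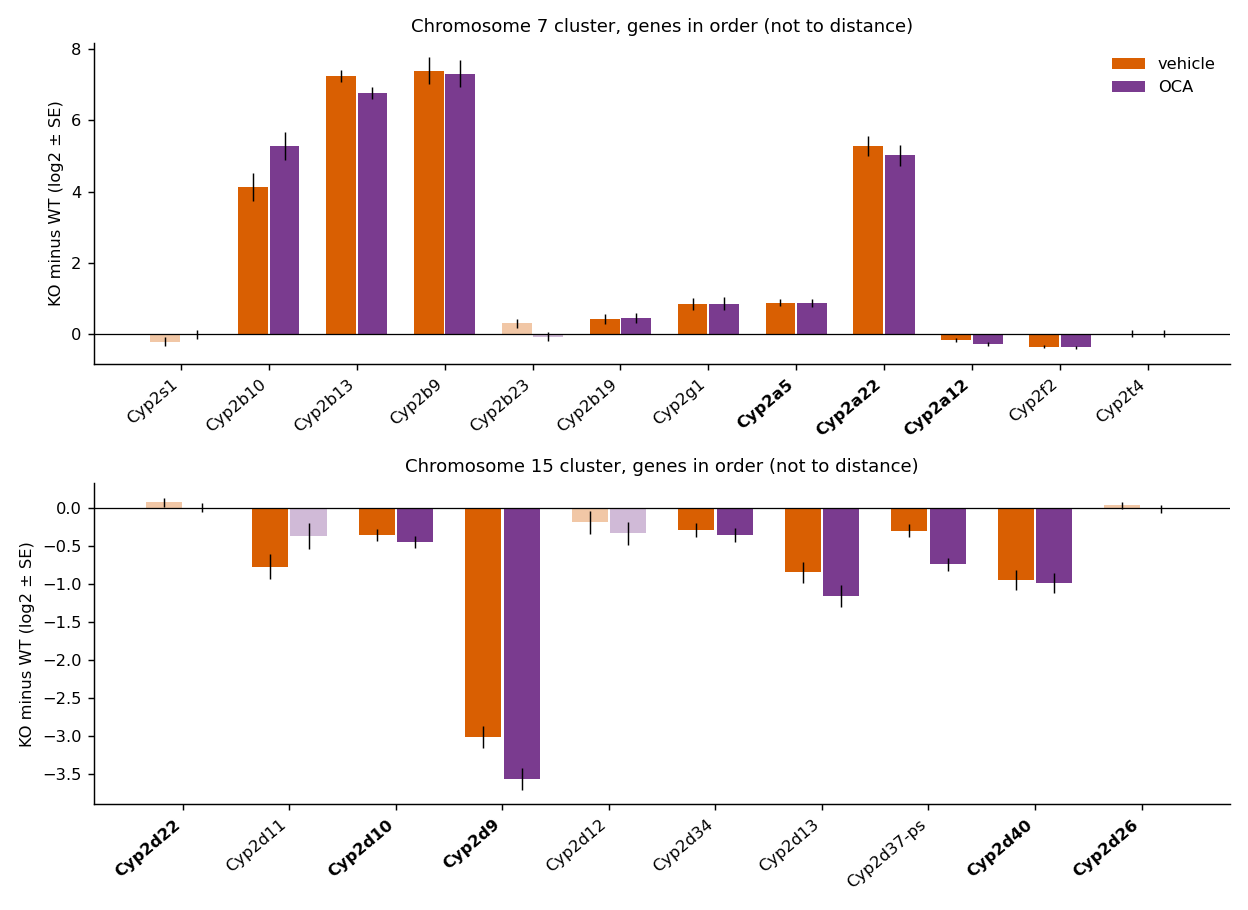
Log2 difference between knockout and wild-type liver (bars, ± SE) under vehicle and under OCA for the measured genes of the chromosome 7 and chromosome 15 clusters, placed in gene order and not by distance, with members in bold and bars that were not called drawn pale. Cyp2a22 at 5.28 stands between Cyp2a5 at 0.88 and Cyp2a12 at −0.18, and Cyp2d9 at −3.01 is beside Cyp2d10 at −0.36.

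Sex-biased liver genes were set beside the members, since these mice were all male. Both lists were chosen with earlier results of these data known, so their counts are description and not a test. Of 16 male-biased genes listed 15 were measured, Cyp2d9 among them, and all 15 were called lower in knockout liver under vehicle and under OCA. The smallest adjusted p under vehicle belonged to Elovl3, a fatty acid elongase (−7.48 ± 0.29, adjusted p = 6.01e-16), Slco1a1, an organic anion transporter (−6.40 ± 0.25, adjusted p = 7.42e-16), Hsd3b5, a steroid dehydrogenase (−7.08 ± 0.30, adjusted p = 2.94e-15), and Cyp2d9 itself. The median of the list was −1.88, against −0.03 for all named genes. Of 15 female-biased genes 10 were measured, and 8 were called higher under vehicle and 9 under OCA, with none lower. Cyp2b13 and Cyp2b9, both also counted above as cluster neighbours, led. They were followed by Cyp17a1, a steroid hydroxylase (2.59 ± 0.22, adjusted p = 1.08e-09), and Fmo2, a flavin mono-oxygenase (2.09 ± 0.22, adjusted p = 4.02e-08). With the code number as a block the female-biased count under OCA was 5 and the male-biased count 11.

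The redox partners and haem supply of P450 enzymes were listed as 13 genes, of which 11 were measured. Under vehicle 7 were called higher in knockout liver and 1 lower. The electron carrier Cyb5a was 0.34 ± 0.05 higher (adjusted p = 1.03e-05), the haem-binding partner Pgrmc1 0.30 ± 0.05 higher (adjusted p = 5.07e-05), the haem-degrading enzyme Hmox1 1.22 ± 0.24 higher (adjusted p = 3.55e-04) and the reductase Cyb5r3 0.20 ± 0.05 higher (adjusted p = 0.00187). The lower gene was Urod of haem synthesis, at −0.15 ± 0.06 (adjusted p = 0.0476), named here because it was the only one. Under OCA 5 were called higher and 2 lower. Over the alternatives the higher count under vehicle ran from 3 to 7.

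Of 21 genes listed as possible regulators of Cyp2a or Cyp2d genes, 18 were measured. Whether they act on the members was not tested. Under vehicle 2 were called higher and 9 lower in knockout liver, and under OCA 2 and 11. Nr0b2 was at −2.62 ± 0.25 under vehicle (adjusted p = 1.21e-08), the growth hormone receptor gene Ghr at −0.39 ± 0.05 (adjusted p = 5.01e-07) and the hepatocyte factor Hnf4a at −0.52 ± 0.08 (adjusted p = 2.95e-05). Nfe2l2, the gene of the oxidative stress factor NRF2, which is known to act on Cyp2a5, was 0.72 ± 0.12 higher (adjusted p = 3.44e-05). The other gene called higher was Ahr, the dioxin receptor (0.68 ± 0.13, adjusted p = 3.25e-04), named because it completes the pair. Among 15 measured genes of a list of other P450 genes outside both clusters, 4 were called higher and 3 lower under vehicle. Cyp2u1 fell by 2.62 ± 0.16 (adjusted p = 3.22e-12), Cyp2c39 rose by 1.29 ± 0.15 (adjusted p = 2.71e-07), Cyp2c29 by 0.43 ± 0.06 (adjusted p = 1.66e-06) and Cyp3a11 by 0.44 ± 0.06 (adjusted p = 2.52e-06).

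Cell type markers moved between genotypes as well, and their part in the members' values was not tested. The 10 hepatocyte markers stayed among the highest values of the array: their mean per liver ran from 12.77 to 12.88 in wild-type and 12.61 to 12.72 in knockout livers under vehicle, with 3 of 10 called lower and none higher. Over the alternatives 3 to 10 of them were called lower, all 10 with median centring. Of 10 Kupffer cell markers 7 were called higher and none lower, and their mean per liver ran from 7.51 to 8.67 in wild-type and 8.48 to 8.75 in knockout livers. Of 8 stellate cell markers 5 were higher and 1 lower (7.22 to 7.52 against 7.46 to 7.76). Of 9 sinusoidal endothelial markers 3 were lower (8.31 to 8.67 against 7.97 to 8.48). Of 6 measured cholangiocyte markers 3 were higher, with a mean that stayed below the median gene of the array in every liver (4.20 to 4.37 against 4.49 to 4.81). These counts are for vehicle, and some differed under OCA. There 9 hepatocyte markers were called lower, 8 Kupffer cell markers higher, and 6 stellate cell markers higher and 1 lower. Of the endothelial markers 1 was higher and 0 lower under OCA, and of the cholangiocyte markers 1 was higher and 0 lower. A log2 array scale has no zero, so no marker can be called absent.

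Position along the liver lobule was described with 2 further lists. Of 10 pericentral hepatocyte markers 4 were called higher and 2 lower in knockout liver under vehicle (mean per liver 9.20 to 9.53 in wild type and 9.51 to 9.70 in knockout). Of 5 measured periportal markers 1 was higher and 4 lower (11.93 to 12.06 against 11.27 to 11.44). Under OCA 4 pericentral markers were higher and 3 lower, and 0 periportal markers were higher and 4 lower. The median log2 difference of the pericentral list was 0.17 under vehicle and −0.06 under OCA. Among 14 measured acute phase genes 4 were higher and 2 lower under vehicle, and 3 and 3 under OCA. In OCA against vehicle, 2 genes of all these lists were called in wild-type liver, Nr0b2 higher and the stellate cell gene Rgs5 lower (−0.45 ± 0.08, adjusted p = 0.0204), and none in knockout liver. The Nr0b2 call was lost without wild-type vehicle replicate 6.

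Within groups the members varied together only in part. Deviations of each liver from its own group mean were correlated over the 24 livers, as a description without a test, since all values of a liver come from 1 array. Cyp2a5 and the Cyp2a5/Cyp2a4 shared probe set had a Pearson r of 0.92, or 0.87 without wild-type vehicle replicate 6. Cyp2a5 and Cyp2d10 had 0.56 (0.40 without that liver), and Cyp2d10 and Cyp2d26 had 0.57 (0.43 without it). Cyp2d9 and Cyp2d40, both lowered in knockout liver, had 0.51 (0.52). Cyp2d22 and Cyp2d40 had −0.48 (−0.56), while Cyp2a12 and Cyp2a22, with the like promoters shown above, had 0.11 (0.06).

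**Figure D4:**
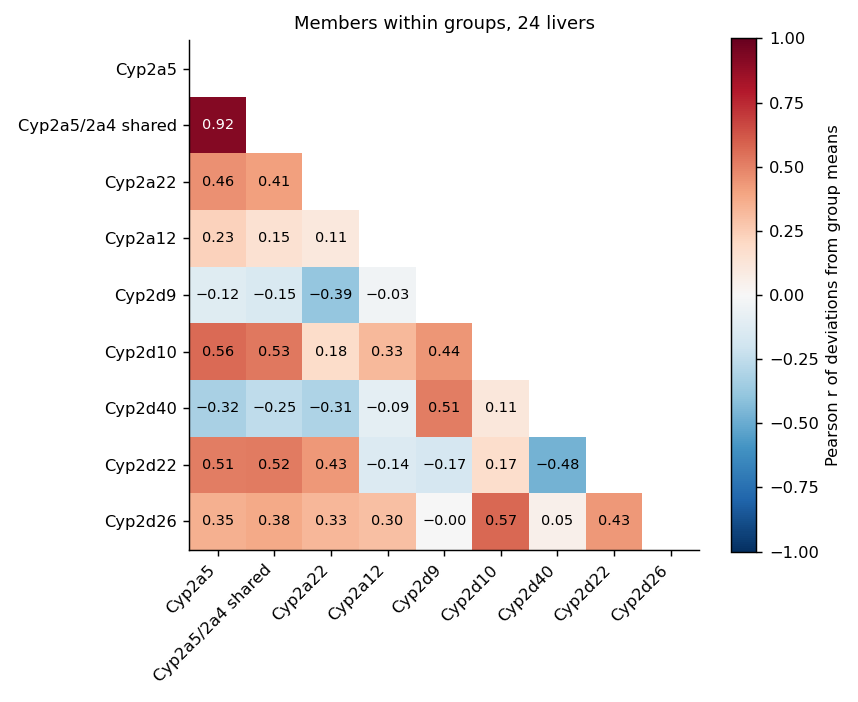
Pearson correlation between each pair of members over 24 livers, taken on deviations from the mean of the liver's group; red is positive and blue negative. The darkest cell is Cyp2a5 with the shared probe set (0.92), and Cyp2d22 with Cyp2d40 (−0.48) is the most negative.

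The genes most like each member in the same within-group measure were also listed, each with its r over all 24 raw values. Psd3 was most like Cyp2a5 (0.89, raw 0.74), Nmrk1 was the second (0.87, raw 0.35) and Fmo1, a flavin mono-oxygenase, the third (0.87, raw 0.96). Ngef (0.93, raw −0.36), Arhgap21 (0.92, raw −0.02) and the clock gene Per3 (0.92, raw 0.31) were most like the shared probe set. Without wild-type vehicle replicate 6 the values of these 3 genes were 0.85, 0.89 and 0.81. Dpys, an enzyme of pyrimidine breakdown (0.89, raw 0.24), Maob, a monoamine oxidase (0.89, raw 0.85), and the carboxylesterase Ces1f (0.86, raw 0.62) were most like Cyp2d22. Snrk (0.79, raw −0.37) and the retinol dehydrogenase Rdh16 (0.78, raw 0.93) led for Cyp2a22, Fetub (0.74, raw 0.74) for Cyp2a12 and Tlk1 (0.82, raw 0.70) for Cyp2d10. Ifi27 (0.71, raw 0.91) led for Cyp2d9, Twnk (0.77, raw 0.67) for Cyp2d26 and Pcnp (0.70, raw 0.92) for Cyp2d40. Without wild-type vehicle replicate 6 the other genes named here ran from 0.64 (Twnk) to 0.87 (Dpys). Each gene was picked for its high r from those with a mean signal of at least 20. These were 11133 genes before members and predicted genes were left out, so high values are selected. The raw value takes in the difference between genotypes, and the within-group value does not.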

How the data were processed

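The values analysed were the log2 expression values that the authors deposited for 24 whole-transcript arrays, made with RMA per the submitters' processing notes; neither its version nor the base of the logarithm is stated, and base 2 was inferred from the range of 0.87 to 13.6. Of 35556 probe sets 21218 had 1 symbol, 1881 several and 12457 none in the probe annotation. Symbols were updated by gene number for 21185 through RefSeq, and the probe set with the highest mean was kept per gene, leaving 18820.

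Group means were fitted for all 4 groups together in R 4.3.3 by limma 3.58.1 (lmFit, eBayes; 20 residual and 4.46 prior degrees of freedom), with Benjamini-Hochberg adjustment and calls at adjusted p under 0.05. The limma fit was tested on simulated data. Each array held 1 mouse. The number of arrays limits the precision. Alternatives were median centring, quantile normalization, a mean signal of at least 20, array weights, robust eBayes with a trend, a fit on the compared groups alone, blocks for array code number, code letter and replicate number, 1 code number alone, leaving out the 4 arrays with names ending in _2, the mean of all probe sets, adjustment over all probe sets, and each array left out in turn.

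The members and gene lists were chosen with earlier results of these data known. All members were named; from each list at most 4 called genes per comparison with the smallest adjusted p were, and exceptions are marked. For likeness, the genes with the highest within-group r among those with a mean of at least log2 of 20 were taken, predicted genes left out. Fewer of these genes are named for some members than for others. Python 3.11.15 with matplotlib 3.10.9 drew the figures. Proteins were not analysed here.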

Additional observations from a re-analysis of the deposited data

Results flagged for a closer look

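Among 36 groups of 6 livers (8 members and the Cyp2a5/Cyp2a4 shared probe set in 4 groups), 6 held a liver whose gap to its nearest neighbour exceeded 0.625 of the group's range, Dixon's critical value for 6 samples. Chance marks about 1 in 20 groups, and values of 1 liver are not independent. Cyp2a12 was high in wild-type vehicle replicate 4 (12.09, nearest value 11.98) and low in knockout OCA replicate 3 (11.61, nearest 11.74). Cyp2d40 was low in wild-type vehicle replicate 1 (7.89, nearest 8.36), low in knockout vehicle replicate 5 (7.24, nearest 7.42) and high in knockout OCA replicate 3 (8.13, nearest 7.51). The shared probe set was low in wild-type OCA replicate 5 (11.23, nearest 11.49). Leaving out any 1 of these livers ended no call of either gene or of the shared probe set.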

How the results depend on the processing

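The count of called members stayed within 1.5 times of the main count in all 72 fits that left out 1 array and in all 62 other alternatives, at 5 to 7 of 8 for knockout under vehicle, 4 to 8 under OCA and 0 for the other 3 comparisons. The 28 turned signs of other alternatives all belong to values that were not called in the main analysis. For OCA in wild-type liver, the code number as a block and number 5 alone both gave 0.25 for Cyp2a5 and 0.074 for Cyp2d22. The letter block gave −0.0082 for Cyp2d9 and −0.022 for Cyp2d10, and array weights gave −0.016 for Cyp2d10 and −0.048 for the shared probe set. For OCA in knockout liver, the number block and number 9 alone both gave 0.020 for Cyp2a22, 0.045 for Cyp2d10 and 0.0034 for Cyp2d26. Quantile normalization gave 0.0089 for Cyp2d26, and leaving out the arrays ending in _2 gave 0.011 for Cyp2d26 and −0.068 for Cyp2d40. For knockout against wild type under vehicle, centring gave −0.10 for Cyp2d22 and −0.14 for Cyp2d26, and the number block and number 7 alone gave −0.010 for Cyp2d26. Under OCA, quantile normalization gave 0.065 for Cyp2d22 and 0.048 for Cyp2d26, the letter block 0.023 and leaving out the arrays ending in _2 0.0087 for Cyp2d22. For the difference of the OCA effects, array weights gave 0.049, the letter block 0.034 and leaving out the arrays ending in _2 0.012 for Cyp2a5. The cause was not tested for any of these.

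Leaving out 1 array turned a sign in 35 of 648 fits and ended or added no call of a member or the shared probe set. The ranges for OCA in wild-type liver were −0.15 to 0.041 (Cyp2a5), −0.012 to 0.41 (Cyp2a22), −0.029 to 0.073 (Cyp2d10), −0.055 to 0.028 (Cyp2d22) and −0.10 to 0.20 (shared probe set). In knockout liver they were −0.19 to 0.058 (Cyp2a22), −0.013 to 0.0084 (Cyp2d26) and −0.055 to 0.12 (Cyp2d40). For knockout under OCA the range was −0.049 to 0.026 (Cyp2d22), and for the difference of the effects −0.093 to 0.097 (Cyp2a5) and −0.16 to 0.066 (Cyp2d40).

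Replicate numbers did not pair the mice: same-numbered livers correlated at −0.08 to 0.17, over 0.1 in 2 of 36 pairs, and 5 of 72 combinations were best with their own number. The replicate block left 6 members called for knockout under vehicle, 6 under OCA and 0 in the other 3 comparisons. Over all named genes, the number block called 667 for OCA in wild-type liver (13 without it), 2334 for knockout under OCA (5780) and 34 for the difference of the effects (0). Centring called 10130 and 11099 genes between genotypes. No detection calls were used, so the wild-type level of Cyp2a22, and with it the size of its fold, may be limited by background.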
